A study of Caenorhabditis elegans with 8 samples.

Results

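The 4 wild-type libraries of an RNA sequencing series on Caenorhabditis elegans are described here as the baseline transcriptome of the day 1 adult. They were chosen by their sample titles and genotype label, and are 4 of the 8 libraries of the series; the other 4 came from an atf-6 strain and enter no value given here. The strain was N2, the laboratory wild type, which carried no transgene or mutation according to the labels. Each of the 4 cultures held about 1000 worms of age 1 day, grown at 20 °C from synchronized newly hatched larvae on lawns of the bacterium OP50-1 for 72 h. The labels call the 4 cultures independent biological replicates and name whole worms as the source. Polyadenylated RNA was turned into libraries with a stranded mRNA kit and read over 75 cycles. The labels do not say whether the counting used strand, so reads of antisense or overlapping genes, non-coding ones included, cannot be told apart. With 1 group there was no contrast, so every value is a description of 4 cultures and no p-value is given.

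An adult C. elegans hermaphrodite is largely an egg-producing animal. Its intestine synthesizes vitellogenins, the yolk lipoproteins that growing oocytes take up, and its germline stores maternal mRNAs that RNA-binding proteins hold silent until fertilization. The epidermis secretes the collagens of the cuticle, while ribosomal protein genes are transcribed at high levels in all growing tissues. In whole-worm RNA, fewer cells of a type and less RNA per cell cannot be told apart.

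Library depth was 12664222 estimated counts in culture 1, 21381351 in culture 2, 17201645 in culture 3 and 21698298 in culture 4. Of 19585 annotated protein-coding genes, 9623 reached 1 TPM (a level scaled for transcript length and library depth) in all 4 cultures, and 2403 had no count in any. No pair of libraries agreed within counting noise, with a chi-square per degree of freedom of 4.75 for cultures 2 and 4 and 39.0 for cultures 1 and 3. Cultures 3 and 1 stood apart from each other: the median absolute log2 difference per gene was 0.23 between them and 0.061 between cultures 2 and 4. atf-6, the gene altered in the other strain, had 3.18, 3.44, 3.06 and 3.49 TPM in cultures 1 to 4.

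The adult, germline and intestinal markers mostly matched the labelled whole adult, and the other tissue lists did so in part. Adult markers, the 6 vitellogenins with col-19, bli-1 and bli-2, summed to 85227, 94198, 109591 and 99339 CPM (counts scaled to library size with TMM), whereas 7 larval markers summed to 58.5 to 69.8 CPM. Nearly all of the adult sum was vitellogenin, and 7 of the 9 adult markers had a mean of at least 5 CPM. The collagens bli-1 and bli-2 did not. All 7 germline markers and all 9 intestinal markers had at least 5 CPM on average. The same level was reached by 4 of 7 larval, 4 of 9 epidermal, 5 of 9 pharyngeal and 8 of 14 neuronal markers. It was also reached by 5 of 6 body muscle, 4 of 7 somatic gonad and 4 of 6 excretory canal markers. Of 6 glial and 4 coelomocyte markers 1 each did so, and of 6 male-enriched markers 0 did. The 7 germline markers included gld-1, a translational repressor of the germline, at 299, 298, 283 and 305 TPM. Glial markers (6 genes) reached 8.94 to 18.4 CPM in sum, coelomocyte markers (4 genes) 63.8 to 80.2 CPM, and the 6 male-enriched markers 0.557 to 1.01 CPM.

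The pool was concentrated in few genes, and the leading names depended on the scale. Of the TPM as deposited, the 100 highest genes held between 51.3% in culture 1 and 57.3% in culture 3, with a mean of 53.8% ± 2.58 (SD, n = 4). The first 50% of TPM needed 92, 77, 62 and 84 genes. Culture 3 was the most and culture 1 the least concentrated. On counts in place of TPM, the 100 highest genes held 29.6% ± 1.79 (SD, n = 4), and 430 ± 63.6 genes made up the first 50%. Among protein-coding genes alone the top 100 held 45.5% ± 1.73 of TPM.

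Short transcripts took a large part of the TPM scale. The quantifier gave 23616 of the 58105 transcripts an effective length (the length it divides by) under 10 bases. These carried 25.8%, 27.6%, 30.8% and 26.9% of TPM but only 0.305%, 0.346%, 0.413% and 0.327% of the reads in cultures 1 to 4. The highest single gene was such a case: rrn-2.1, a short ribosomal RNA gene of 153 bases (WBcel235, chromosome I, 15064301 to 15064453), was assigned an effective length of 6 bases. It stood at 102715, 120463, 143013 and 108533 TPM, 11.9% ± 1.78 of the whole, although its share of reads per annotated length was 1.20% ± 0.224. Of the 30 genes with the highest TPM, 8 were annotated as non-coding RNA, 2 as ribosomal RNA, 1 as miRNA and 19 as protein-coding, and 21 had an effective length under 100 bases. T04C12.26, a non-coding RNA of 150 bases, had the rank 3 by TPM, at 22934 ± 1161 TPM (SD, n = 4). Protein-coding genes held 75.5%, 73.5%, 70.5% and 74.4% of TPM and 97.9% ± 0.0842 of the counts. For that reason the shares below are given on more than 1 scale.

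**Figure D1:**
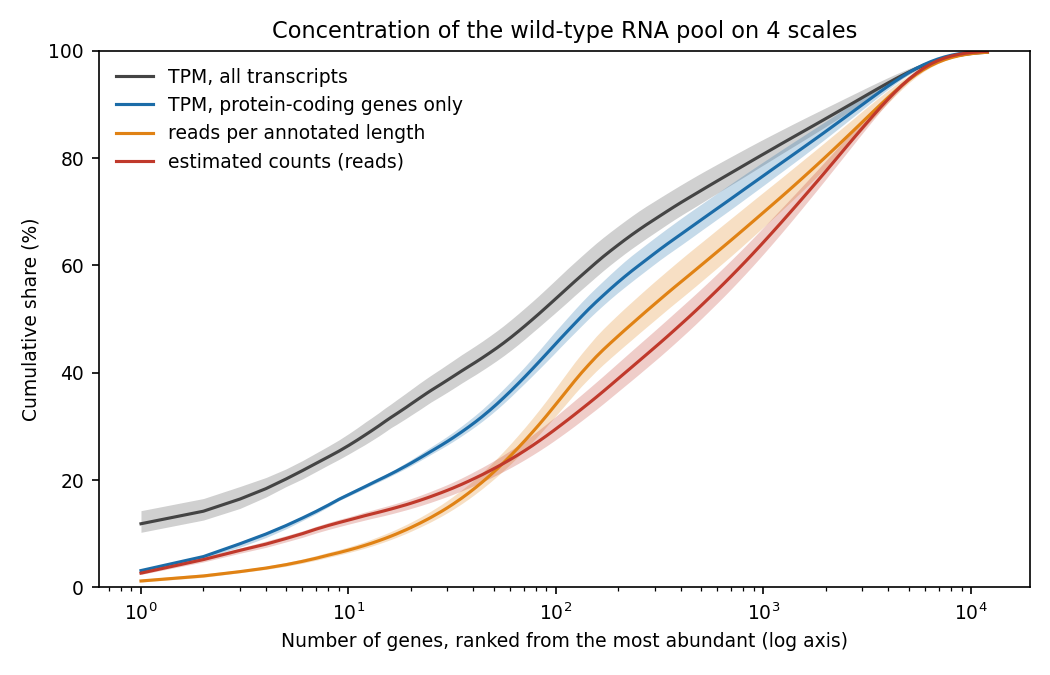
Cumulative share of the pool (percent) against the number of genes ranked from the most abundant (log axis), on 4 scales. Lines are means of 4 cultures and bands run from the lowest to the highest culture. TPM over all transcripts rises fastest, to 53.8% at 100 genes, and counts slowest at that rank, to 29.6%.

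The make-up of the 100 most abundant protein-coding genes shifted with the scale in the same way. By TPM, 64 of them were listed cytosolic ribosomal proteins, 5 were col collagens and 3 were vitellogenins. The ribosomal list was matched by symbol, so a ribosomal protein gene named only by sequence is not counted. Of the 100 by TPM, 9 had such names. By reads per annotated length the numbers were 65, 9 and 5. By counts, which favour long messages, they were 42, 13 and 6. The TPM and count rankings shared 54 of the 100 genes. The TPM and annotated-length rankings shared 84. With reads per annotated length, eef-1A.1 led the coding genes at 0.933% ± 0.0634 of the pool, followed by rpl-41.2, vit-2, vit-6 and far-2. eef-1A.1 encodes the translation elongation factor that brings charged tRNA to the ribosome, and far-2 a secreted fatty-acid- and retinol-binding protein.

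Ribosomal proteins were the most abundant family on every length-scaled measure. The 80 listed genes of the cytosolic ribosome held 24.6%, 24.7%, 24.5% and 24.1% of TPM in cultures 1 to 4. Their share was 33.3% ± 1.06 of protein-coding TPM, 22.7% ± 1.45 of reads per annotated length and 10.4% ± 0.827 of counts. All 80 had counts and 79 reached a mean of 5 CPM. The symbol classes rpl and rps are not the same set as the 80, since rpl-36.A, outside the 80, falls in the rpl class. In these classes, 47 rpl genes of the large subunit held 15.8% ± 0.240 of TPM and 31 rps genes of the small subunit 8.57% ± 0.164.

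Individual ribosomal protein messages spanned a wide range on the TPM scale. rpl-29, a large-subunit protein, was the highest coding gene at 22856, 23653, 22433 and 23425 TPM. rpl-41.2, which encodes one of the smallest ribosomal proteins, was second at 21292, 19949, 16050 and 19503 TPM. rpl-39 followed at 19407, 18721, 14438 and 17822 TPM. The TPM of rpl-41.2 and rpl-39 was lowest in culture 3, whereas that of rpl-29 differed little between cultures. These leading places rest on short messages, since the main rpl-29 transcript has 217 bases and an effective length of 12. On reads per annotated length, rpl-41.2 held 0.801% ± 0.0734, rps-23 0.584% ± 0.0130 and rps-8 0.471% ± 0.0226. rpl-36.A, a large-subunit gene whose symbol falls outside the list of 80, had 4822, 4758, 5174 and 4859 TPM.

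Translation factors formed the next layer of the same machinery. The 19 listed genes held 1.09% ± 0.00738 of TPM and 2.74% ± 0.132 of counts. eef-1A.1 alone had 3935, 3939, 4183 and 4015 TPM. eef-2, the elongation factor that moves the ribosome along the message, had 984, 980, 965 and 977 TPM, with a mean of 977 ± 8.05 TPM (SD, n = 4). iff-1, a germline homologue of initiation factor eIF-5A, had 1505, 1479, 1514 and 1497 TPM.

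Yolk genes held a far larger share of the counts than of the length-scaled pool. The 6 vitellogenins held 8.89%, 9.32%, 9.93% and 9.90% of all counts in cultures 1 to 4. The 80 listed ribosomal proteins together held 10.4% ± 0.827 of counts, more than the vitellogenins in cultures 1 to 3. In culture 4 the shares were nearly equal, at 9.86% for ribosomal proteins and 9.90% for vitellogenins. The ribosomal list leaves out genes such as rpl-36.A, so its share is a lower limit and the list does not settle the order in culture 4. The vitellogenins held 0.904% ± 0.0441 of TPM, which put them behind the rpl, rrn, rps and col classes, and 2.38% ± 0.119 of reads per annotated length. Their messages are long: the main vit-2 transcript has 4922 bases. vit-2 stood at 2370, 2425, 2576 and 2605 TPM, and vit-6 at 2284, 2279, 2374 and 2560 TPM. vit-5 had 1651, 1655, 1531 and 1845 TPM.

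The order within the family was the same in all 4 cultures on the TPM scale, vit-2 over vit-6, vit-5, vit-3, vit-4 and vit-1. vit-3 averaged 1021 ± 67.9 TPM, vit-4 866 ± 67.1 TPM and vit-1 612 ± 24.8 TPM (SD, n = 4). vit-2 and vit-6 lay within their spread of each other. vit-6 encodes the precursor of the smaller yolk polypeptides and vit-1 to vit-5 the larger ones. vit-3, vit-4 and vit-5 are near-identical genes, as are vit-1 and vit-2, so the division of reads inside each set depends on the quantifier. All but vit-6, on chromosome IV, lie on the X chromosome.

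**Figure D2:**
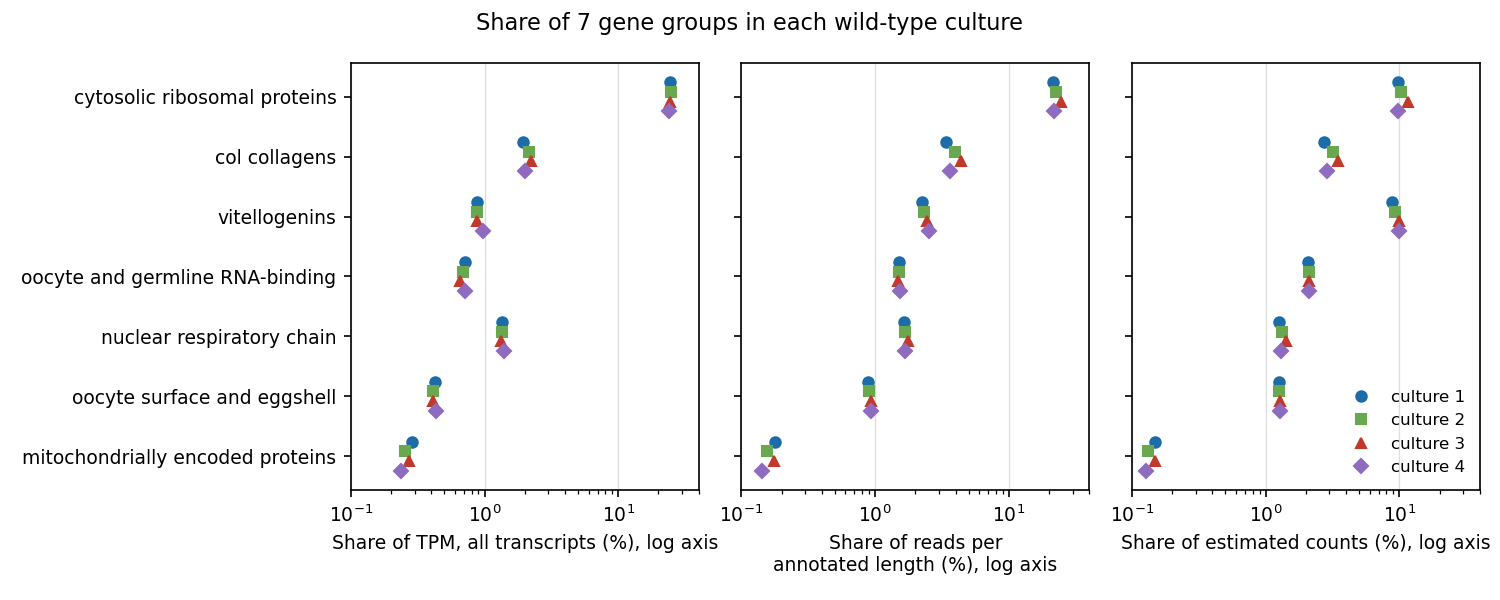
Share of 7 gene groups (vertical axis) in each of 4 wild-type cultures, as percent of TPM (left), of reads per annotated length (middle) and of estimated counts (right), all on log axes. Points are single cultures. Ribosomal proteins lead in each culture on the first and second scales. In counts the vitellogenins lie close to them, at a mean of 9.51% against 10.4%. In culture 4 the groups are nearly equal, at 9.90% and 9.86%.

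Among gene classes by symbol, the col collagens had the rank 4 by TPM, after rpl, rrn and rps. The 155 col genes held 1.95%, 2.15%, 2.22% and 2.02% of TPM and 3.84% ± 0.416 of reads per annotated length. The class was used unevenly: 148 had counts but only 41 reached a mean of 5 CPM. The highest was col-181 at 1793, 1919, 2029 and 1860 TPM, then col-124 at 1711, 1879, 1902 and 1673 TPM. col-119 (1648 ± 71.7 TPM), col-122 (1640 ± 138 TPM) and col-140 (1473 ± 121 TPM) completed the 5 highest. col-19, the classic adult-specific cuticle collagen, had 969, 1097, 1219 and 1009 TPM. On the TPM scale col-124 was lowest in culture 4, and the other 5 were lowest in culture 1.

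Other cuticle collagens and those of the basement membrane were far less abundant on the TPM scale. The 19 dpy, rol, sqt, bli and related cuticle collagens held 0.00234% ± 0.000567 of TPM, with dpy-13 highest at 4.31 ± 1.72 TPM. let-2 and emb-9, the chains of basement membrane collagen IV, had 69.6 ± 7.33 and 42.5 ± 3.37 TPM.

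Germline and oocyte products were moderately abundant and even between cultures. The 34 germline RNA-binding genes held 0.719%, 0.693%, 0.656% and 0.712% of TPM and 2.10% ± 0.0117 of counts, and all 34 passed 5 CPM. cey-2, a Y-box protein that packages maternal mRNA, was highest at 1341, 1340, 1332 and 1369 TPM. cgh-1, a DEAD-box helicase of germline RNP granules, had 718, 700, 669 and 745 TPM, and its partner car-1 had 556, 544, 595 and 578 TPM. pos-1, a zinc-finger regulator needed in the early embryo, had 423 ± 38.6 TPM.

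Oocyte surface and eggshell genes followed closely. The 12 listed genes held 0.420% ± 0.0122 of TPM, led by perm-2, a protein of the egg permeability barrier, at 910, 897, 964 and 954 TPM. The eggshell chondroitin proteoglycans cpg-2 and cpg-1 had 776 ± 7.45 and 589 ± 44.3 TPM. rme-2, the yolk receptor of the oocyte, had 186, 188, 167 and 183 TPM, which is below each vitellogenin on the TPM scale. The 22 meiotic chromosome genes together held 0.107% ± 0.0119, with the pairing-centre protein gene him-8 highest at 355 ± 44.5 TPM.

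Sperm products were close to the lower end of what was measured. The 31 major sperm protein genes, which encode the cytoskeletal protein of crawling nematode sperm, summed to 98.5, 148, 174 and 103 CPM, and 10 of them reached a mean of 5 CPM. msp-58 was the highest by TPM, at 129, 202, 156 and 115 TPM. Behind this level stood only 3.55 to 6.45 CPM. Of 37 other sperm genes, 5 passed 5 CPM. These genes are near-identical copies, and how the reads were divided among them depends on the quantifier.

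Mitochondrial messages made up a small share, in libraries that select for poly(A) tails. The 12 protein genes of the mitochondrial genome held 0.286%, 0.255%, 0.271% and 0.238% of TPM and 0.139% ± 0.0109 of counts. COX1, a subunit of complex IV, was highest at 746, 693, 714 and 717 TPM. COX3 had 466, 366, 373 and 359 TPM, and CYTB, a subunit of complex III, had 434, 323, 355 and 302 TPM. At the other end, ND2 had 20.2, 24.0, 40.2 and 22.5 TPM, and ND3 had 47.0 ± 11.2 TPM. Both are complex I subunits. The levels of single genes on this genome therefore differed by more than 10-fold.

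Nuclear genes of the same respiratory complexes held a larger share together, but over 44 listed genes against 12. The 44 listed nuclear genes held 1.36% ± 0.0266 of TPM, and all passed 5 CPM. Highest of the 44 listed were hpo-18, an ATP synthase subunit, at 1529, 1544, 1663 and 1558 TPM, and nuo-3 of complex I at 1489, 1393, 1151 and 1621 TPM. Genes of these complexes outside the list were not ranked. atp-2, the catalytic ATP synthase subunit, had 719, 742, 754 and 750 TPM. The 65 mitochondrial ribosomal proteins held 0.268% ± 0.0304 of TPM, compared with 24.4% ± 0.274 for those of the cytosolic ribosome.

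Fatty-acid carriers, chaperones and muscle proteins also included abundant messages. far-2 had 3377, 3710, 3875 and 3736 TPM and far-1 had 1330, 1515, 1679 and 1516 TPM. hsp-1, the constitutive cytosolic Hsp70, had 1009, 993, 1050 and 1044 TPM. sip-1, a small heat shock protein made in oocytes and embryos, had 1167, 1184, 1215 and 1117 TPM, whereas the heat-inducible hsp-16.1 had 13.0 ± 6.25 TPM. Of the muscle sarcomere genes, pat-10, which encodes troponin C, was highest at 843, 868, 854 and 860 TPM. unc-54, the major body wall myosin heavy chain, had 140, 157, 167 and 156 TPM.

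By chromosome, the autosomes I and IV carried the most coding TPM and the X chromosome little. Chromosome I held 23.8% ± 0.142 of coding TPM with 14.4% of the coding genes, and chromosome IV 22.8% ± 0.0418 with 16.5%. The X chromosome held 7.70% ± 0.201 with 13.6% of the genes. In counts chromosome III held 19.9% ± 0.119, chromosome I 19.9% ± 0.180 and chromosome IV 18.7% ± 0.0958, so the lead of I and IV was not kept. In counts the X share was 12.7% ± 0.405, and it was 5.70% ± 0.113 with the vitellogenins left out of the X count. The median level of X genes at a mean of at least 5 CPM was 7.42 TPM, against 21.4 to 25.2 TPM on the autosomes. The 12 genes of the mitochondrial genome held 0.357% ± 0.0300.

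Variation between the 4 cultures was small for most genes. Of 8209 genes at a mean of at least 5 CPM, the median coefficient of variation (CV, SD over mean) beyond counting error was 0.0751, and 1151 genes showed no spread beyond counting error. The highest culture was at least 2-fold the lowest for 145 genes, 1.77% of those measured, and at least 1.5-fold the lowest for 865 genes, 10.5%. Culture 3 was the highest or the lowest in 138 of the 145 and in 806 of the 865. Without culture 3 the counts were 15 and 146, and without culture 1 they were 74 and 413, so both counts rest largely on these libraries.

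Cultures 3 and 1 lay at opposite ends of the main axis. The first principal component of log2 CPM held 77.7% of the variance between cultures, and on it culture 3 lay at 0.21, culture 1 at -0.14 and cultures 2 and 4 at -0.036 and -0.035 (root mean square log2 per gene). Of the 145 genes, 92 were highest in culture 1 and lowest in culture 3, and 20 were the reverse. Over all genes measured, 43.2% were highest in culture 3 and 30.3% highest in culture 1. The 92 genes had a median of 14.9 CPM and the 20 a median of 8.26 CPM, against 42.6 CPM for all genes measured.

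Level and length moved with that axis. In the most abundant of 5 equal bins of genes the median log2 difference of culture 3 from culture 1 was 0.17, and in the other 4 bins it lay between -0.0088 and 0.0074. In the shortest of 5 bins by transcript length it was 0.15, and in the longest -0.021. The quantifier's effective lengths moved too: the median effective length of transcripts with at least 10 reads was 75.6% of the annotated length in culture 1, 74.0% in cultures 2 and 4, and 71.2% in culture 3. Culture 1 was also the shallowest library. Whether effective length, depth or composition has a part in the differences between cultures was not tested.

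**Figure D3:**
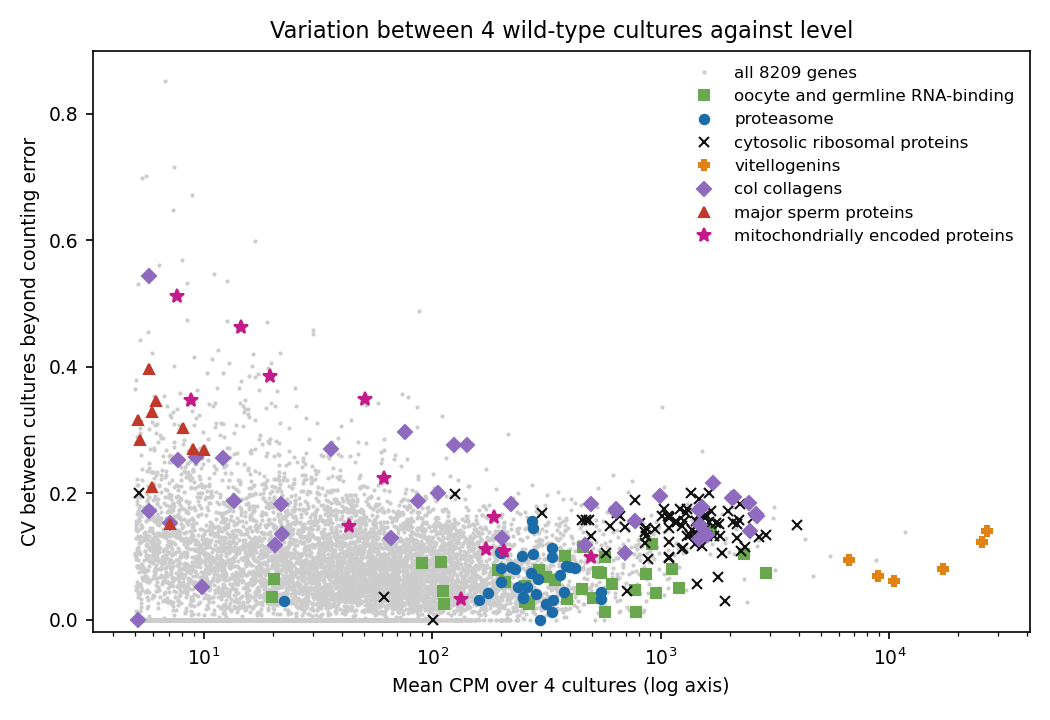
Coefficient of variation between 4 cultures beyond counting error (vertical axis) against mean CPM (log axis), 1 point per gene at a mean of at least 5 CPM. Coloured marks are 7 gene groups. Vitellogenins, proteasome and oocyte genes lie at 0.16 or below, whereas several sperm protein and mitochondrially encoded genes lie above 0.3.

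Ribosomal proteins, collagens and muscle genes leaned to culture 3 as groups, with small folds. Ribosomal proteins summed to 91673, 102885, 124859 and 97420 CPM, and 75 of 79 were highest in culture 3, against 43.2% of all genes and 63.3% of the most abundant of the 5 bins by level. In that bin 3.65% of genes reached 1.5-fold. The median CV beyond counting error was 0.149 for ribosomal proteins and 0.0751 for all genes. Of the 79, 6 reached 1.5-fold, and 1 did so without culture 3 or without culture 1. rpl-20, among the widest, had 1037, 1352, 1704 and 1328 CPM. On the deposited TPM scale the ribosomal share did not show this lean, at 24.6%, 24.7%, 24.5% and 24.1%. The lean was present on coding TPM, at 32.6%, 33.5%, 34.7% and 32.3%. It was also present on reads per annotated length, at 21.5%, 22.7%, 24.8% and 21.9%.

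The col collagens summed to 25968, 31574, 37899 and 28533 CPM, and 38 of 41 were highest in culture 3. Of these 41, 17 reached 1.5-fold and 2 reached 2-fold. Without culture 3, 8 reached 1.5-fold, and without culture 1, 6 did. col-139 had 96.4, 145, 163 and 94.2 CPM, and col-129 had 114, 165, 185 and 104 CPM. col-81 had 54.8, 89.5, 99.8 and 57.8 CPM. All 3 were higher in cultures 2 and 3 than in cultures 1 and 4. col-3, a low-level member, had 1.56, 8.86, 7.36 and 5.19 CPM, the lowest value again in culture 1.

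Muscle genes gave the same order. All 27 sarcomere genes were lowest in culture 1, against 37.3% of all genes, and 25 were highest in culture 3. Of these, 8 reached 1.5-fold, and none did without culture 3 or without culture 1. mlc-2, a myosin light chain, had 494, 610, 818 and 549 CPM. unc-54 had 1673, 2055, 2559 and 1969 CPM. let-2 of the basement membrane had 594, 729, 980 and 694 CPM. Body wall muscle markers summed to 2879, 3404, 4194 and 3302 CPM and epidermal markers to 1388, 1724, 2225 and 1530 CPM. On TPM the epidermal list was nearly all col-19, which is also counted among the col collagens. Of 9 epidermal markers 4 reached a mean of 5 CPM. Of these, 2 were highest in culture 3, 1 was lowest in culture 1 and 2 were lowest in culture 4.

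Relative to all genes, these leanings in CPM were similar under the library-size factors tried, but not all of them were seen on the deposited TPM. In COX1, ND2, unc-54 and rme-2, and in the vitellogenin and col sums, CPM over TPM changed between cultures by nearly the same factors. For these, the order of cultures differs between the scales mainly through a factor common to each library. With TMM the median log2 difference of culture 3 from the median of the other cultures was 0.021 over all genes, and library-total scaling moved it to -0.12. Over that background, ribosomal proteins stood 0.35 higher with TMM and 0.35 with library totals, col collagens 0.38 and 0.39, sarcomere genes 0.28 and 0.28, and vitellogenins 0.15 and 0.16. F-box A genes stood at -0.25 and -0.23. On the deposited TPM the col and sarcomere shares were again highest in culture 3. The share of germline RNA-binding genes was lowest there, at 0.656%. The vitellogenin share was also lowest there, at 0.879%, but close to the 0.882% and 0.884% of cultures 1 and 2. On coding TPM the vitellogenin share ran from 1.17% in culture 1 to 1.30% in culture 4. On reads per annotated length it ran from 2.24% in culture 1 to 2.51% in culture 4. The mitochondrially encoded share of deposited TPM was highest in culture 1, whereas the sum of their CPM, at 1408, 1314, 1596 and 1259, was highest in culture 3.

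Sperm proteins and mitochondrially encoded genes were among the groups that varied more than all genes, with median CVs beyond counting error of 0.294 and 0.193 against 0.0751. Of the 10 major sperm proteins measured, 9 reached 1.5-fold and 5 reached 2-fold. Lowest in culture 1 were 8 of them, against 37.3% of all genes. Without culture 3, 9 still reached 1.5-fold but none reached 2-fold, and without culture 1 the counts were 7 and 2. msp-76 had 3.87, 6.03, 8.99 and 4.14 CPM, and msp-78 had 3.28, 6.26, 8.68 and 6.47 CPM. Genes of this abundance vary more in general: in the lowest of the 5 bins by level, 21.4% of genes reached 1.5-fold.

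Of the 12 mitochondrially encoded genes, 6 reached 1.5-fold and 5 reached 2-fold. ND2 had 9.61, 12.5, 24.5 and 11.3 CPM, ATP6 had 43.5, 45.8, 76.3 and 36.2 CPM, and ND6 had 13.3, 20.8, 29.7 and 14.1 CPM. In these the highest culture was 3. The most abundant member, COX1, had 461, 471, 566 and 470 CPM, a ratio of 1.23. ND5 had 132, 127, 136 and 138 CPM. Without culture 4, 5 reached 1.5-fold and 3 reached 2-fold. Without culture 3, 2 of the 12 reached 1.5-fold and 1 reached 2-fold, and ND5 stayed within 127 to 138 CPM in all 4.

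In several yolk, oocyte and housekeeping groups no gene reached 1.5-fold. None of the 6 vitellogenins, 34 germline RNA-binding genes, 12 oocyte surface and eggshell genes, 22 meiotic genes, 33 proteasome genes or 18 measured glycolytic genes reached 1.5-fold, in any set of 3 cultures or in all 4. Genes of high level seldom did: the share was 3.65% in the most abundant of the 5 bins, so counts of 0 in groups this small set none of them apart. The median CV beyond counting error was 0.0640 for germline RNA-binding genes and 0.0638 for the proteasome, but 0.0870 for vitellogenins and 0.102 for glycolysis, above the 0.0751 of all genes. With TMM all 6 vitellogenins were lowest in culture 1 and highest in culture 3, summing to 83868, 92503, 107395 and 97835 CPM. As shares of all counts, vit-5, vit-3 and vit-4 were highest in culture 4. pos-1 was steady at 760, 783, 785 and 774 CPM. The yolk receptor gene rme-2 had 981, 1092, 1135 and 1028 CPM.

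Other groups leaned the opposite way, with culture 3 lowest. Of 12 measured nematode-specific peptide genes, a nematode family of small proteins of unknown function, 11 were lowest in culture 3, against 37.6% of all genes, and 9 reached 1.5-fold, but only 1 did so without culture 3. nspc-5 had 5.51, 7.42, 1.13 and 6.47 CPM and nspc-20 had 12.5, 14.0, 4.65 and 10.1 CPM. F-box A genes, substrate adaptors for ubiquitin ligases, were lowest in culture 3 in 10 of 14, and 5 reached 1.5-fold, none without culture 3 and 2 without culture 1. fbxa-210 ran from 31.9 CPM in culture 1 to 16.6 CPM in culture 3, with cultures 2 and 4 between them.

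Several fatty acid enzymes were also lowest in culture 3. Of 15 fatty acid desaturase and elongase genes, 10 were lowest in culture 3, against 37.6% of all genes. Of the 15, 5 reached 1.5-fold, none without culture 3 and 3 without culture 1. elo-1, a polyunsaturated fatty acid elongase, had 310, 300, 186 and 298 CPM, and fat-3, a fatty acid desaturase, had 98.7, 83.8, 51.6 and 74.3 CPM. fat-2 went the other way with 415, 422, 472 and 443 CPM. acdh-1, an acyl-CoA dehydrogenase of propionate breakdown, had 1182, 1128, 710 and 1097 CPM, but only 3 of the 10 propionate and branched-chain genes were lowest in culture 3 and 7 were lowest in culture 1. In elo-1 and acdh-1 the other 3 cultures lay close together and culture 3 alone was low.

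**Figure D4:**
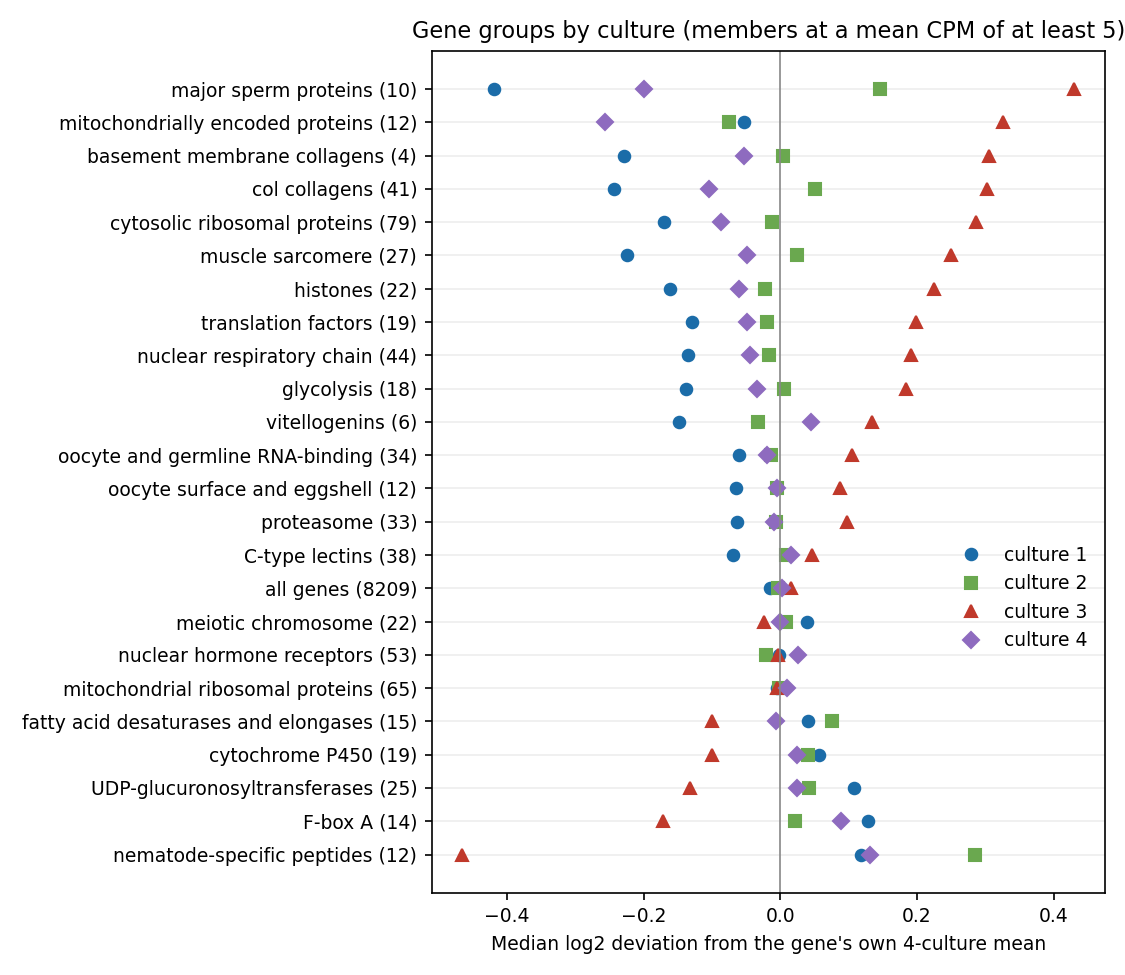
Median log2 deviation of each gene group from the genes' own 4-culture mean (horizontal axis) for each culture, with the number of members at a mean of at least 5 CPM in brackets. Culture 3 lies farthest right for sperm proteins, collagens and ribosomal proteins and farthest left for nematode-specific peptides and F-box A genes, while cultures 2 and 4 stay near 0 in most groups.

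The most variable single genes were mostly of low level. Of the 20 with the highest CV beyond counting error, 19 averaged under 20 CPM, and 18 were highest or lowest in culture 3. F31E3.6 had 12.8, 8.68, 1.26 and 6.60 CPM, C46G7.1 had 16.5, 12.5, 2.33 and 12.9 CPM, and B0393.8 had 10.1, 7.05, 1.38 and 6.92 CPM. In these 3 genes culture 3 alone was low. ZK742.6 was the reverse at 2.46, 3.06, 10.8 and 5.14 CPM. C08F11.12 was highest in culture 1 and had 6.73, 2.89 and 4.83 CPM in cultures 2, 3 and 4.

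For some of the variable genes the gene table and plain sums of the transcript reads gave different spreads. C23H5.11, the most variable of all, had 5.73, 0.139, 14.3 and 6.97 CPM in the gene table. Plain sums of its reads gave 0.442, 0.324, 0.258 and 0.499 CPM. unc-31, a regulator of neuropeptide release, had 26.2, 2.88, 21.7 and 16.3 CPM in the gene table but 3.53, 2.87, 2.90 and 3.27 CPM as plain sums. Its 19 annotated transcripts run from 54 to 4206 bases, and the transcript with the most reads took 95.2% of reads in culture 3 and 0% in the other 3. ZK1055.6 likewise fell from a ratio of 9.06 to 1.41. Of the 20 genes, 4 were under 2-fold as plain sums. Of the 145 genes, 125 were still at least 2-fold.

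Among genes with at least 100 CPM, icd-2 was the most variable. icd-2, the alpha subunit of the nascent polypeptide-associated complex, had 801, 817, 1511 and 895 CPM, with culture 3 alone high. As plain sums it had 889, 973, 1266 and 958 CPM, a ratio of 1.42 in place of 1.89. ntl-11, a subunit of the CCR4-NOT deadenylase complex, fell from a ratio of 1.95 to 1.12 in the same way. ule-4, a gene with 286, 226, 133 and 210 CPM, kept its spread as plain sums with a ratio of 2.03. smc-5, which encodes a chromosome maintenance protein, had 207, 186, 112 and 184 CPM and a ratio of 2.05 as plain sums. rrn-2.1 had 1167, 1508, 2086 and 1309 CPM, and rrn-4.15, another short ribosomal RNA gene, had 59.2, 75.7, 151 and 64.4 CPM. Both were highest in culture 3 in these poly(A)-selected libraries.

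**Figure D5:**
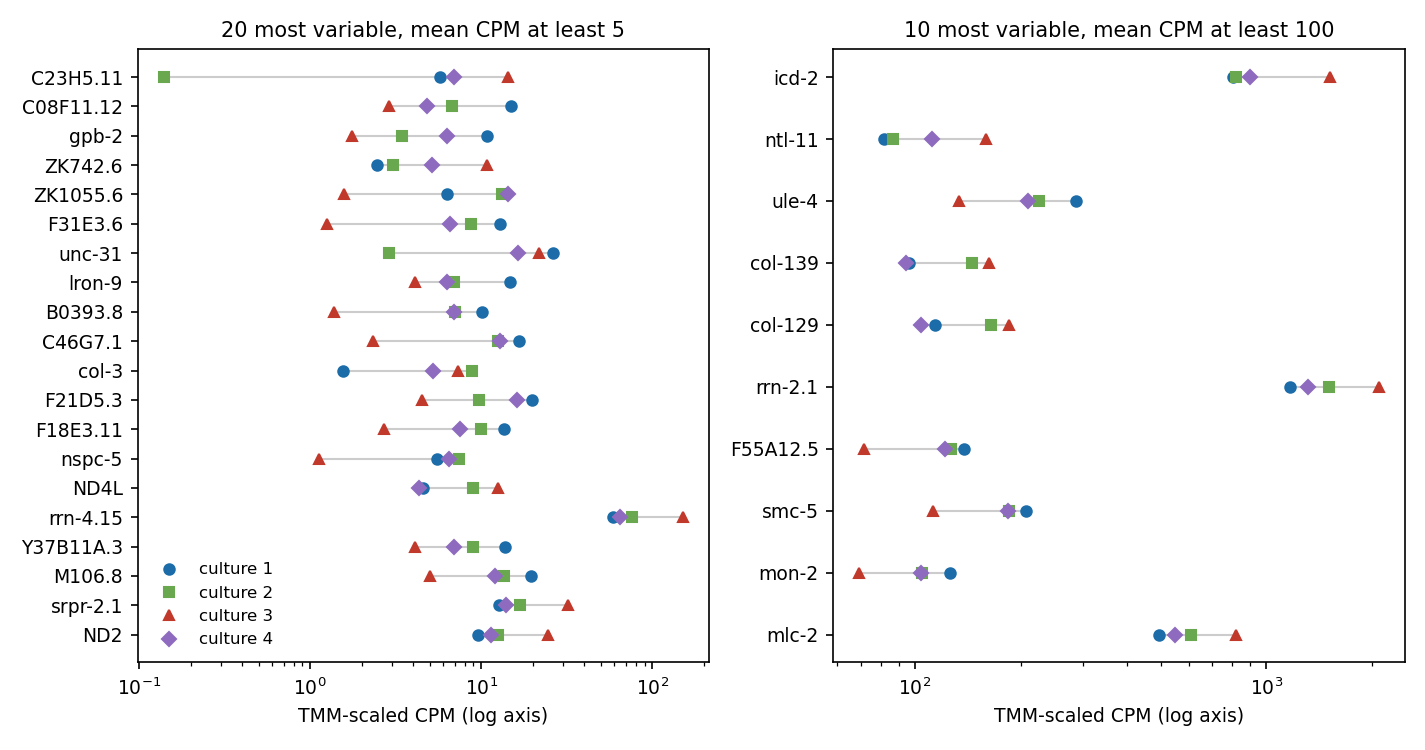
TMM-scaled CPM in each culture (log axis) for the 20 genes with the highest CV beyond counting error at a mean of at least 5 CPM (left) and the 10 at a mean of at least 100 CPM (right). Points are single cultures and grey bars run from the lowest to the highest. Culture 3 (triangles) lies at an end of nearly every bar, for example at 1.26 CPM for F31E3.6 and at 1511 CPM for icd-2.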

How the data were processed

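Poly(A)-selected RNA of 4 wild-type cultures was sequenced. The authors deposited estimated counts and TPM per transcript and per gene for each library, with annotated and effective lengths. Per the submitters' processing notes the tools were Salmon 0.9.1, STAR 2.5.3a and DESeq2 1.19.51, and the build was WBcel235, with roles not given in the sources used here. Estimated counts were not rounded for shares and CPM, but were rounded to obtain the library-size factors and the plain sums. No count test was run.

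Shares were computed from the deposited TPM, from TPM over protein-coding genes, from counts, and from reads per annotated length. Gene names and types came from Ensembl release 115 and RefSeq. Gene counts were scaled with TMM (edgeR 4.0.16) to CPM, and genes at a mean of at least 5 CPM were compared between cultures by highest over lowest value and by CV after removal of counting error. This script was tested on simulated data. The libraries held 12664222 to 21698298 counts, and no counting interval is given for shares.

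Named genes were the 30 highest by TPM, the 20 most variable (10 at 100 CPM or more), up to 5 members of each list by TPM and 2 by variation, and all vitellogenin and mitochondrially encoded genes. Genes outside this rule that are named here were chosen after their values were seen. Members and lists were chosen with earlier results of these data known. Alternatives covered scale, scaling, filters and leaving out each culture. The list of chemosensory receptors is not reported, because its symbol pattern also caught other genes. No p-value was computed, because 1 group holds no contrast.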

Additional observations from a re-analysis of the deposited data

Results flagged for a closer look

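Of the 83 list sums and single-gene CPM values examined, 3 had 1 culture far from the other 3 relative to the whole range. In each it was culture 3. For COX1 the gap between culture 3 and the nearest other culture was 0.896 of the range (461, 471, 566 and 470 CPM). For elo-1 it was 0.903 (310, 300, 186 and 298 CPM), with culture 3 lowest. For icd-2 it was 0.868 (801, 817, 1511 and 895 CPM), with culture 3 highest. On plain sums of the transcript reads the gap for elo-1 was 0.897 of the range, but those for COX1, at 0.524, and icd-2, at 0.777, no longer passed the limit. Chance flags about 1 in 20 groups. Over all 8209 genes measured, 604 (7.36%) passed the same limit, and culture 3 was the distant one in 456 of them.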

How the results depend on the processing

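The shares depended on the scale. For coding TPM, counts, reads per annotated length and transcripts of effective length of at least 100, in that order, ribosomal proteins held 33.3%, 10.4%, 22.7% and 24.0%, vitellogenins 1.23%, 9.51%, 2.38% and 1.69%, col collagens 2.84%, 3.08%, 3.84% and 3.91%, mitochondrially encoded genes 0.357%, 0.139%, 0.163% and 0.441%, and germline RNA-binding genes 0.945%, 2.10%, 1.51% and 1.30%. The top 100 genes held 45.5%, 29.6%, 34.2% and 36.1%, and 68.4% with each class as 1 unit. The first 50% needed 130.75, 429.5, 251.75 and 235.5 genes, and 14.5 class units. The last 2 scales were chosen after seeing the data. The count of 2-fold genes was 233 with library totals, 415 on TPM, 685 at a mean of 1 CPM, 32 at 20 CPM and 15 to 138 with 1 culture left out, lowest without culture 3. The count of 1.5-fold genes was 1338, 2231, 2425 and 370, and 146 to 812 with 1 culture left out, again lowest without culture 3. The median CV ran from 0.0337 without culture 3 to 0.0852 without culture 4. The cause was not tested. No paired analysis was possible because the libraries form 1 group with no contrast. The order of groups and cultures also turned with the scale: vitellogenins held less than col collagens by TPM and more by counts. The ribosomal protein lean to culture 3 was absent on deposited TPM but present on coding TPM and reads per annotated length. Low genes are limited by depth, and near-identical genes by how reads were divided.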

Other observations

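Protease, lysozyme and lectin genes formed further visible groups. The 34 gut protease genes held 0.438% ± 0.0103 of TPM (SD, n = 4), and 25 had a mean of at least 5 CPM. cpl-1, a cathepsin L protease, had 709, 722, 756 and 750 TPM, and asp-1, an aspartyl protease, had 539, 570, 642 and 595 TPM. Lysozymes and saposin-like proteins held 0.515% ± 0.00647 of TPM over 52 genes, with ilys-5, an invertebrate-type lysozyme gene, at 1485, 1497, 1430 and 1521 TPM and spp-14, a saposin-like gene, at 990, 1024, 1099 and 1060 TPM. Of 237 C-type lectin genes, 38 had a mean of at least 5 CPM, and clec-87 was the highest at 753, 733, 659 and 760 TPM.

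Neuropeptide, insulin-like and cytochrome P450 genes were low in whole-worm RNA, whereas the 65 genes of the stress and detoxification list held 0.263% ± 0.00791 of TPM. The 51 listed flp and nlp neuropeptide genes held 0.0625% ± 0.00441 of TPM, with nlp-36 highest of the list at 218, 177, 153 and 194 TPM. The list does not cover every gene with these symbols: the 71 genes of the nlp symbol class held 0.131% ± 0.00685 of TPM. None of the 39 insulin-like peptide genes had a mean of at least 5 CPM. The 75 cytochrome P450 genes held 0.0237% ± 0.00375 of TPM, and 3 of the 19 at 5 CPM or more reached 1.5-fold between cultures, none of them without culture 3.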
